A study of Homo sapiens with 12 samples.

Results

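RCH-ACV is a human pre-BCR+ acute lymphoblastic leukemia cell line. The genes described here are a list fixed by symbol around the amino acid response, and no such response was measured. They are the transcription factor ATF4 with its partners, the enzymes of serine, one-carbon, asparagine, proline, alanine and cysteine synthesis, and the cytosolic aminoacyl-tRNA synthetases. Members were taken by gene symbol from a list of 46 genes, with amino acid transporters left out, and 45 of them were listed in the tables of both clones, among 15582 genes that both tables share. The exception was NUPR1, a small stress-induced chromatin protein, which was in neither table and is not analysed here.

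RNA was sequenced from 12 libraries in 4 groups of 3. In each of the 2 clones, dasatinib-resistant RCH-ACV cells, kept in rising concentrations of the SRC and ABL kinase inhibitor dasatinib up to 1 μM, were compared with dasatinib-sensitive RCH-ACV cells kept in vehicle, 0.1% DMSO. The resistant lines of the 2 clones were raised independently and in parallel, and the replicates of a group are RNA isolations at different time points, so they are repeated samples of 1 line. Resistant cells were cultured with dasatinib and sensitive cells without it, so resistance and exposure cannot be told apart. The library titles carry the letter A for clone 1 and B for clone 2, and what it stands for is not given. If the letters mark separate sets, clone and set cannot be told apart either. The values used here are the authors' mean normalized counts over the 6 libraries of a clone, resistant and sensitive cells together. They carry no spread and they give no value for resistant against sensitive cells, so what follows describes how strongly each gene was expressed and how the 2 clones differed. In bulk RNA, fewer expressing cells and less RNA per cell cannot be told apart.

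ATF4 is the effector of the integrated stress response. When amino acids run short or the endoplasmic reticulum is stressed, kinases phosphorylate the initiation factor eIF2α, general translation slows, and ATF4 mRNA is translated more efficiently. ATF4 then pairs with C/EBP proteins on composite elements near genes for amino acid synthesis, tRNA charging and stress feedback. ATF4 is therefore controlled largely at translation, and its transcript level is not a measure of its activity. B-cell precursors that divide quickly need serine and glycine as sources of one-carbon units for nucleotide synthesis.

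The composite ATF4 element, searched as TGATGNAAN on both strands, was found near the transcription start of 12 of the 37 members that have a RefSeq promoter sequence (32.4%). Among all 27305 genes with such a sequence it was found in 4.45%, and among the 10804 of these compared between clones in 2.67%. The window ran from 250 bases before to 50 bases after each annotated start on GRCh38.p14, and a gene can have several starts. By window, 14 of 58 member windows (24.1%) and 3.61% of all 35116 windows held it. The members were chosen partly as known ATF4 targets, so the excess is a description of the list, and a match of letters does not show a bound site. Of the members that are not synthetases, 5 of 21 with a promoter sequence held the element (23.8%). No match was found for the feedback genes TRIB3, PPP1R15A, VLDLR and STC2. The enzymes PHGDH, PSAT1, SHMT1, MTHFD1, MTHFD2, ALDH18A1, CTH and CBS had none either. The 4 stretches with a match before every annotated start of the gene are shown in the direction of the gene. Matched letters are in capitals. These stretches were picked by their match, so they do not show how far the roles share the element. They give the letters around it in a metabolic enzyme, a feedback gene and tRNA synthetases.
ASNS, chr7:97872443-97872501, minus strand: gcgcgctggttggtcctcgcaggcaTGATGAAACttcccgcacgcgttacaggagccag
CHAC1, chr15:40953236-40953294, plus strand: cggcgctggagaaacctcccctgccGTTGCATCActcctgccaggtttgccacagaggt
AARS, chr16:70289661-70289719, minus strand: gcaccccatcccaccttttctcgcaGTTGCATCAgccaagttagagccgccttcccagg
IARS, chr9:92293698-92293736, minus strand: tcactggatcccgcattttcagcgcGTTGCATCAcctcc

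The element in ASNS read along the gene and began 68 bases before the start. The elements in CHAC1, AARS and IARS lay on the opposite strand, so they are printed as the reverse complement, and their first printed letters stood 210, 188 and 14 bases before the start. CHAC1, AARS and IARS shared the same 9 letters, GTTGCATCA, and CARS and MARS carried those letters across the start itself. CEBPG, JDP2 and NARS held TGATGCAAC, which is the same site read on the other strand. The search left only the letters written N free, so most of this identity was set by the search. The synthetases NARS and TARS had a match just after the start, and GARS, CEBPG, JDP2 and MTHFD1L had one before a start that lay at or after another annotated start of the same gene. By role, 7 of 16 cytosolic synthetases with a promoter sequence held the element (43.8%), against 1 of 14 mitochondrial synthetases (7.14%). Among all genes with such a sequence the share was 4.45%. Of the cytosolic synthetases, only AARS, GARS and IARS had a match wholly before a start. No promoter sequence was used for NUPR1, PSPH, SHMT2, PYCR1, GPT2, DARS, LARS, VARS and YARS.

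The members were strongly expressed as a group. To compare genes, each mean normalized count was divided by the longest coding length of the gene in kb and ranked among all genes of the table that have a coding length. The 45 members had a median of 1873 per kb in clone 2, against 372 per kb over all genes of that table, and of 1456 per kb in clone 1, against 331 per kb over all genes. Their median percentile was 85.0 in clone 2 and 84.0 in clone 1. Of the 45, 40 in clone 2 and 39 in clone 1 lay above the median gene, and 12 and 11 of them lay above the percentile of 90. Together they took 0.719% of the summed mean normalized counts in clone 2 and 0.703% in clone 1. Dividing by the whole transcript length in place of the coding length raised the median percentile to 90.6 in clone 2 and 89.2 in clone 1.

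**Figure D1:**
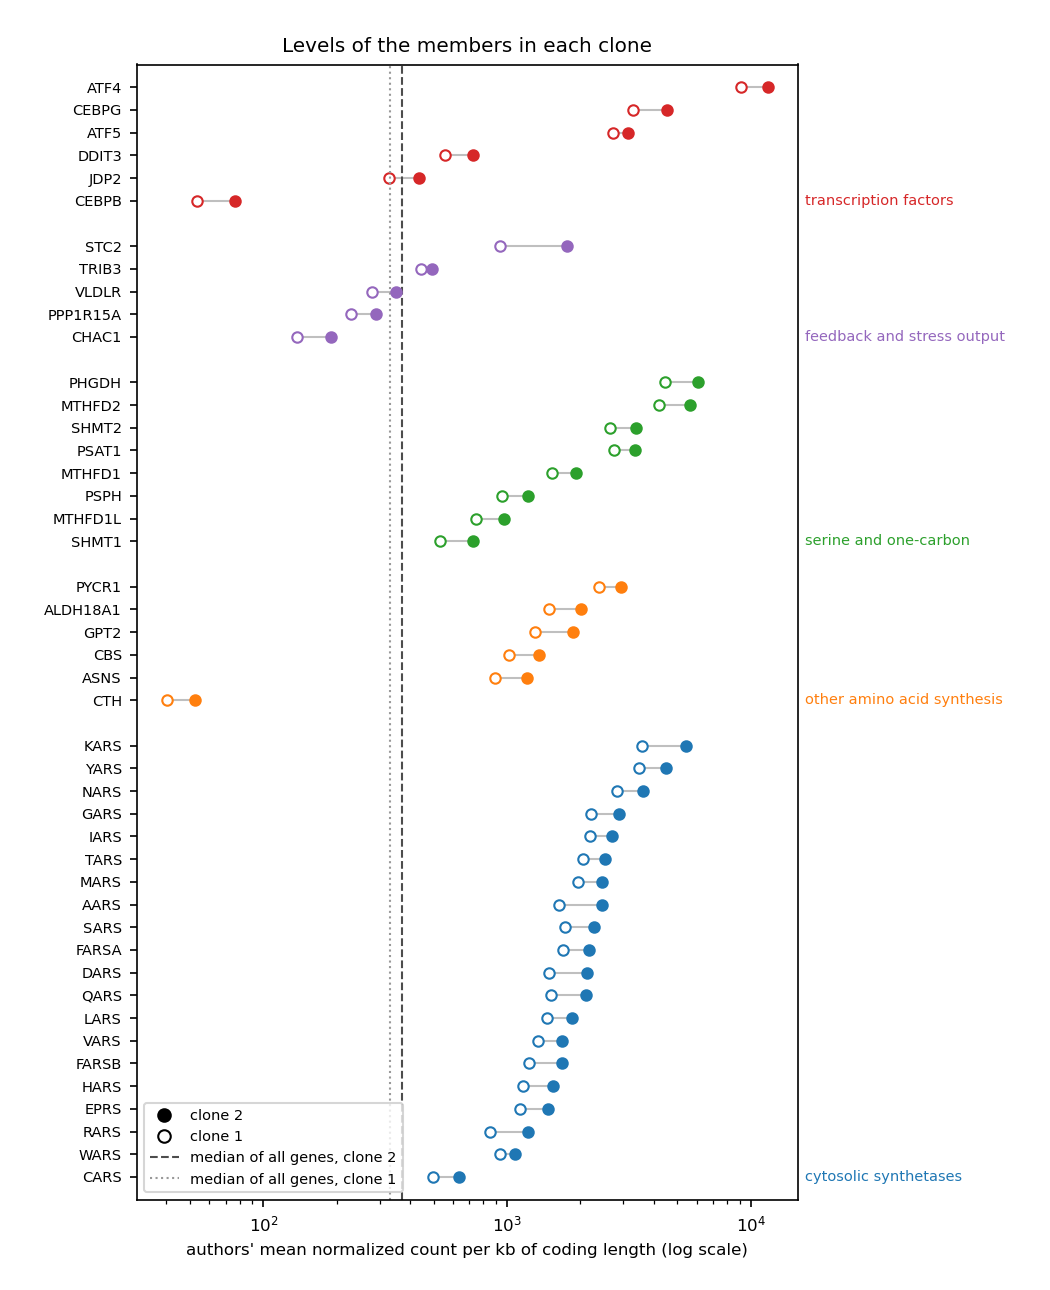
Level of each of the 45 members (rows, grouped by role) as the authors' mean normalized count per kb of coding length on a log axis, for clone 2 (filled) and clone 1 (open), with the median of all genes as vertical lines. ATF4 is highest and CTH lowest in both clones, all 20 synthetases lie to the right of both medians, and the deposited values of clone 2 are shifted by a factor of 1.29 as a whole table.

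Among the transcription factors, ATF4 itself stood far above its partners. Its mean normalized count was 12380 in clone 2 and 9570 in clone 1, or 11757 per kb (clone 2) and 9088 per kb (clone 1), the highest level per kb of all members in both clones. CEBPG, a C/EBP protein that forms heterodimers with ATF4, had 4537 per kb in clone 2 and 3278 per kb in clone 1. ATF5, a close relative of ATF4 that is also controlled at translation, had 3149 per kb (clone 2) and 2726 per kb (clone 1). The remaining listed factors were much lower. DDIT3, which encodes the proapoptotic factor CHOP, had 723 per kb in clone 2 and 558 per kb in clone 1. JDP2, a repressor of AP-1 sites, had 434 per kb (clone 2) and 328 per kb (clone 1), close to the median gene of each table. CEBPB, another C/EBP partner, had only 76.8 per kb in clone 2 and 53.5 per kb in clone 1, at percentiles 28.2 (clone 2) and 22.9 (clone 1).

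The feedback and stress output genes were the lowest role, with a median of 350 per kb in clone 2 and 278 per kb in clone 1. STC2, a secreted glycoprotein induced by stress, was the highest of them, with 1769 per kb (clone 2) and 936 per kb (clone 1). TRIB3, a pseudokinase that binds ATF4 and limits its activity, had 493 per kb in clone 2 and 442 per kb in clone 1. The other members of this role lay below the median gene in both clones. VLDLR, a lipoprotein receptor and ATF4 target, had 350 per kb (clone 2) and 278 per kb (clone 1). PPP1R15A, also known as GADD34, which directs a phosphatase to eIF2α, had 290 per kb (clone 2) and 229 per kb (clone 1). CHAC1, which degrades glutathione and is a sensitive ATF4 target, had 189 per kb (clone 2) and 138 per kb (clone 1), with means of 150 (clone 2) and 109 (clone 1).

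All 8 genes of serine and one-carbon metabolism lay above the median gene in both clones, and their median of 2636 per kb in clone 2 and 2084 per kb in clone 1 was the highest of the roles. PHGDH, the first enzyme of serine synthesis from glycolysis, ranked next after ATF4 among the members, with 6085 per kb in clone 2 and 4451 per kb in clone 1. PSAT1, the next enzyme of that route, had 3353 per kb (clone 2) and 2750 per kb (clone 1). PSPH, the phosphatase that releases serine, had 1222 per kb (clone 2) and 955 per kb (clone 1), the lowest of the 3 steps in both clones. PSPH has a closely similar pseudogene, and how shared reads were assigned is not given in the sources used here.

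Of the paired compartment enzymes, the mitochondrial serine hydroxymethyltransferase SHMT2 was well above the cytosolic SHMT1. SHMT2 had 3368 per kb in clone 2 and 2636 per kb in clone 1, and SHMT1 had 727 per kb (clone 2) and 530 per kb (clone 1), so that SHMT2 exceeded SHMT1 by 4.64-fold in clone 2 and 4.97-fold in clone 1. The mitochondrial dehydrogenase and cyclohydrolase MTHFD2, which passes on the carbon unit that SHMT2 releases, ranked next after PHGDH among the members, at 5618 per kb (clone 2) and 4207 per kb (clone 1). MTHFD1L, the mitochondrial formate-producing enzyme, had 975 per kb (clone 2) and 743 per kb (clone 1), against 1919 per kb (clone 2) and 1532 per kb (clone 1) for the cytosolic MTHFD1. That ratio of 0.508 in clone 2 and 0.485 in clone 1 was sensitive to the length used, and became 0.956 (clone 2) and 0.913 (clone 1) per kb of whole transcript. Whether the members of such a pair differ beyond the spread of libraries could not be judged from pooled means.

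Of the 6 other amino acid synthesis genes, 5 lay above the median gene in both clones. PYCR1 and ALDH18A1, which carry out the last and the first step of proline synthesis from glutamate, had 2921 and 2003 per kb in clone 2 and 2381 and 1492 per kb in clone 1. GPT2, the mitochondrial alanine aminotransferase, had 1873 per kb in clone 2 and 1296 per kb in clone 1. ASNS, the asparagine synthetase that asparaginase therapy of acute lymphoblastic leukemia makes important, had 1210 per kb (clone 2) and 891 per kb (clone 1). The 2 enzymes of transsulfuration, which turns homocysteine into cysteine, were far apart. CBS, the first of them, had 1358 per kb in clone 2 and 1020 per kb in clone 1. CTH, the second, had 52.5 per kb (clone 2) and 40.1 per kb (clone 1), the lowest level of all listed members, with means of 63.8 (clone 2) and 48.7 (clone 1).

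The 20 cytosolic synthetase genes, each of which loads an amino acid onto its tRNA or encodes a subunit that does, were all above the median gene in both clones, and their median was 2146 per kb in clone 2 and 1580 per kb in clone 1. They made up 0.427% of the summed mean normalized counts in clone 2 and 0.417% in clone 1. The highest were the lysine enzyme KARS with 5430 per kb in clone 2 and 3578 per kb in clone 1, the tyrosine enzyme YARS with 4474 per kb (clone 2) and 3476 per kb (clone 1), and the asparagine enzyme NARS with 3605 per kb (clone 2) and 2836 per kb (clone 1). These 3 led the order in both clones. The lowest was the cysteine enzyme CARS with 634 per kb in clone 2 and 495 per kb in clone 1. Next came the tryptophan enzyme WARS with 1082 per kb (clone 2) and 932 per kb (clone 1) and the arginine enzyme RARS with 1222 per kb (clone 2) and 848 per kb (clone 1), and WARS and RARS changed places between the clones. The synthetases thus spanned 8.57-fold in clone 2 and 7.23-fold in clone 1, and the other 14, the histidine enzyme HARS and the serine enzyme SARS among them, lay between 1468 and 2867 per kb in clone 2 and between 1132.5 and 2209.9 per kb in clone 1. No neighbours in this order can be called different, since pooled means give no spread.

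Of these synthetases, 8 sit together in the multi-synthetase complex on the scaffold proteins AIMP1, AIMP2 and EEF1E1, and were grouped after their values were seen. Those 8 had a median of 2119 per kb (range 1222 to 5430) in clone 2 and of 1506 per kb (range 848 to 3578) in clone 1. The 12 outside the complex had medians of 2220 per kb (clone 2) and 1665 per kb (clone 1), within ranges that overlapped those of the 8. The scaffold genes were at similar levels, with EEF1E1 highest at 1981 per kb (clone 2) and 1459.6 per kb (clone 1), AIMP1 at 1812 per kb (clone 2) and 1284 per kb (clone 1) and AIMP2 at 1635 per kb (clone 2) and 1103 per kb (clone 1). FARSA and FARSB, the subunits that pair in the phenylalanine enzyme, had 2171 and 1675 per kb in clone 2 and 1690 and 1235 per kb in clone 1. FARSA over FARSB was thus 1.30 in clone 2 and 1.37 in clone 1, and 1.98 (clone 2) and 2.08 (clone 1) per kb of whole transcript.

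Mitochondria use a separate set of synthetases encoded in the nucleus, and the cytosolic gene was the higher one in 15 of 16 pairs in both clones. EPRS entered with both EARS2 and PARS2. The mitochondrial phenylalanine enzyme FARS2, at 318 per kb (clone 2) and 214 per kb (clone 1), was not paired. The median ratio, cytosolic over mitochondrial, was 3.54 in clone 2 and 3.59 in clone 1, and 13 pairs were past 2-fold in both clones. EPRS, which charges both glutamate and proline, exceeded the mitochondrial proline enzyme PARS2 by 8.71-fold in clone 2 and 9.66-fold in clone 1, and the mitochondrial glutamate enzyme EARS2 by 1.99-fold (clone 2) and 1.90-fold (clone 1). YARS exceeded YARS2 by 7.77-fold (clone 2) and 7.50-fold (clone 1). The exception was the cysteine pair, in which CARS stood at 0.719 of CARS2 in clone 2 and 0.728 in clone 1. CARS remained under CARS2 per kb of whole transcript, at 0.722 (clone 2) and 0.731 (clone 1). MARS over MARS2 was 3.998 in clone 2 and 4.07 in clone 1 by coding length, and 6.31 (clone 2) and 6.41 (clone 1) by transcript length. GARS and KARS supply both compartments from the same gene, and QARS has no mitochondrial counterpart.

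**Figure D2:**
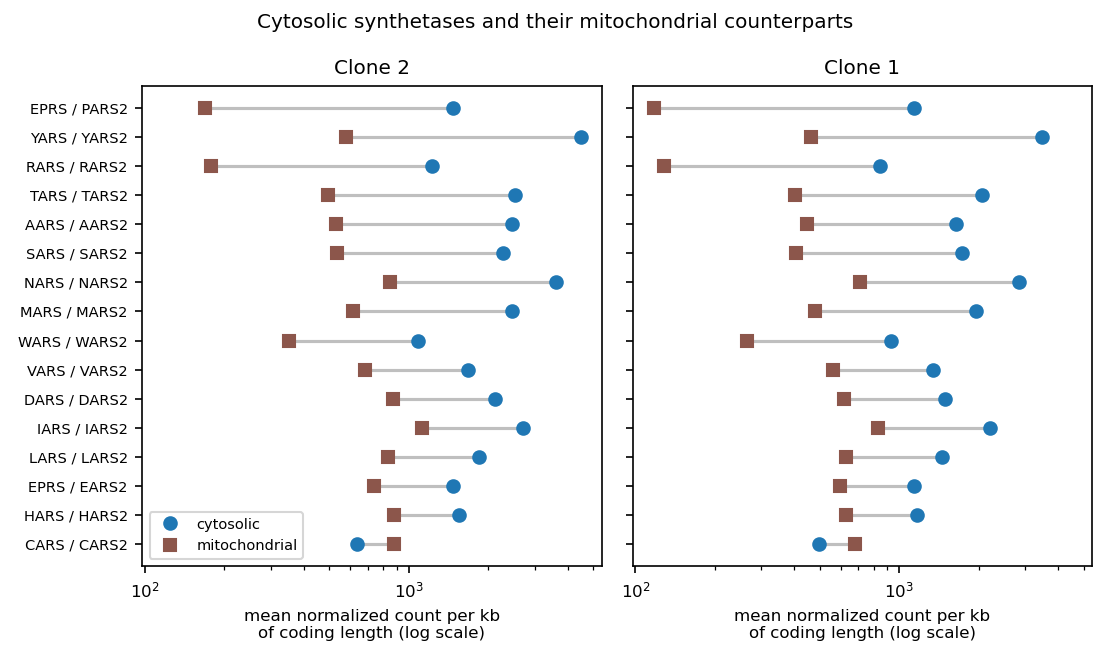
Authors' mean normalized count per kb of coding length (log axis) for 16 pairs of a cytosolic synthetase (circle) and its mitochondrial counterpart (square), in clone 2 (left) and clone 1 (right), ordered by the ratio in clone 2. The circle is to the right of the square in 15 pairs of both panels, and CARS with CARS2 is the pair in which it is to the left.

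The clones were then set side by side gene by gene. The 2 tables were normalized separately, and the deposited means of clone 2 exceeded those of clone 1 by 0.37 on the log2 scale at the median gene, so each ratio is given after that shift was removed. With a mean of at least 10 in both tables, 13917 genes could be compared, including all 45 listed members. A change past 1.5-fold in either direction was found for 4.94% of all genes and for 0 of the 45 members. Most members are strongly expressed, and such genes differed less. With a mean of at least 1000 in both tables, 0.542% of 4427 genes and 0 of 34 members were past it. The shares of all genes were 2.75% with a mean of at least 50, 8.47% with no filter, and 1.54% past 2-fold, against 0 members each time. The median log2 ratio of the members was 0.01, against 0.00 over all genes. Their SD over genes was 0.12, against 0.29 over all genes, and with a mean of at least 1000 it was 0.09, against 0.14. With a mean of at least 10, 34 of the 45 members (75.6%) lay within 0.10 of 0, against 51.0% of all genes.

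**Figure D3:**
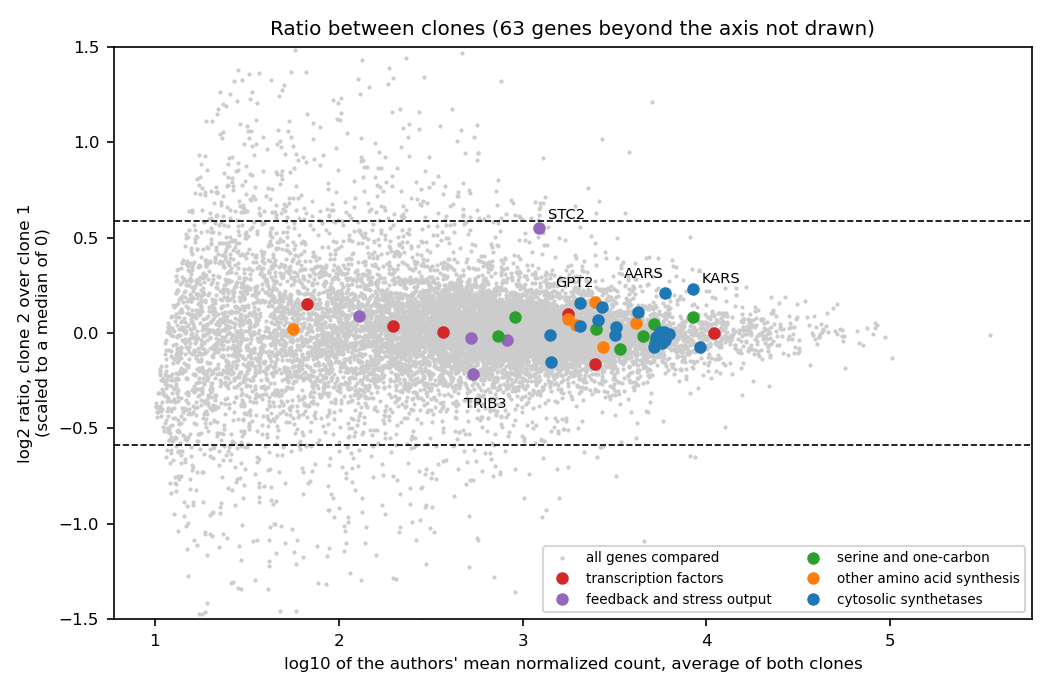
Log2 ratio of clone 2 over clone 1 after scaling to a median of 0 (y axis) against the log10 of the mean normalized count averaged over both clones (x axis), for all genes compared (gray) and the members by role. Dashed lines mark 1.5-fold; no member lies beyond them, STC2 at 0.55 is the nearest, and TRIB3 at -0.21 is the lowest.

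STC2 differed most between the clones and came closest to the limit. Its mean normalized count was 1603 in clone 2 and 848 in clone 1, which is 1.46-fold higher in clone 2 after scaling, or 0.55 on the log2 scale, and 97.0% of all genes had a lower ratio. Among the other members of its role, TRIB3 had the lowest ratio of all members, at -0.21 with means of 569 (clone 2) and 511 (clone 1). PPP1R15A at -0.03, VLDLR at -0.04 and CHAC1 at 0.09 lay near 0. The factors did not share a direction. ATF4 and DDIT3 both stood at 0.00, CEBPG at 0.10, CEBPB at 0.15 and JDP2 at 0.04, and ATF5 at -0.16 stood out on the low side with means of 2664 (clone 2) and 2306 (clone 1). No value over libraries was used, so none of these differences could be tested.

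The enzymes of amino acid synthesis were more uniform. The 8 serine and one-carbon genes ranged from -0.08 for PSAT1 to 0.09 for SHMT1, with PHGDH at 0.08, MTHFD2 at 0.05, MTHFD1L at 0.02, PSPH at -0.01, SHMT2 at -0.02 and MTHFD1 at -0.04. The other 6 ranged from -0.07 for PYCR1 to 0.16 for GPT2, with ASNS at 0.07, ALDH18A1 at 0.06, CBS at 0.04 and CTH at 0.02. The 20 synthetases had a median of 0.00. WARS, whose gene is also induced by interferon, was the lowest of them at -0.15, where the authors' means were 1529 (clone 2) and 1317 (clone 1). KARS at 0.23 and AARS at 0.21 were the highest, followed by RARS at 0.16, DARS at 0.14 and QARS at 0.11.

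After STC2, the 3 members with the highest ratios, KARS, AARS and GPT2, are the 3 members located on the long arm of chromosome 16. GPT2 at 0.162 was only just ahead of RARS on chromosome 5 at 0.158 and CEBPB on chromosome 20 at 0.152. KARS, the lysine enzyme, had a mean normalized count of 10182 in clone 2 and 6709 in clone 1, which is 1.17-fold higher in clone 2 after scaling. AARS, the alanine enzyme, had 7113 in clone 2 and 4761 in clone 1, or 1.16-fold higher. GPT2, which makes alanine, had 2939 in clone 2 and 2034 in clone 1, or 1.12-fold higher. The chromosome arm was looked at after these values were seen. All 269 genes of that arm that were compared had a median log2 ratio of 0.21 (quartiles 0.12 and 0.29), and 90.3% of them were above 0. Among the 99 of them with a mean of at least 1000 the median was 0.20, with 92.9% above 0. The 314 genes of the short arm had a median of -0.02, and the other autosomes had medians from -0.04 to 0.02. The ratios of KARS, AARS and GPT2 thus lay within the quartiles of their arm, and the 42 members elsewhere had a median of 0.00. From pooled means it cannot be told whether resistant or sensitive cells carry this difference.

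**Figure D4:**
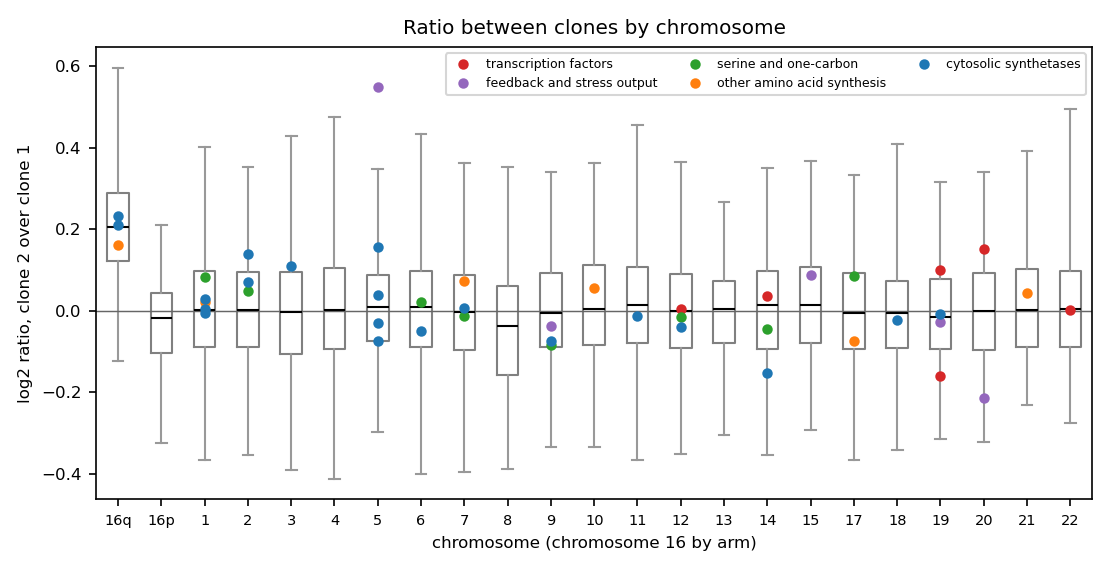
Log2 ratio of clone 2 over clone 1 by chromosome, with chromosome 16 split into its long (16q) and short (16p) arm; boxes give the median and quartiles of all genes compared, whiskers the percentiles from 5 to 95, and points the members by role. The box of 16q is centered at 0.21, every other median lies between -0.04 and 0.02, and the 3 members on 16q lie at 0.16 to 0.23.

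The remaining genes of the stress pathway spread over a wide range of levels. Of 18 genes of its core, 18 were in the table of clone 2 and 17 in that of clone 1. Their median was 801 per kb in clone 2 and 600 per kb in clone 1, and 0 of the 17 compared genes were past 1.5-fold between the clones, against 4.94% of all genes, a share under which a list of this size would show few or none. The 3 subunits of eIF2, the target of the stress kinases, were the highest. EIF2S3 had 6754 per kb (clone 2) and 5468 per kb (clone 1), EIF2S1 had 4690 per kb (clone 2) and 3625 per kb (clone 1), and EIF2S2 had 4593 per kb (clone 2) and 3427 per kb (clone 1). CEBPD, a C/EBP protein, was the lowest, with 1.82 per kb in clone 2, and was not in the table of clone 1. The heme-regulated kinase EIF2AK1 was the highest of the 4 eIF2α kinases, with 2921 per kb (clone 2) and 2164 per kb (clone 1). The kinases that sense double-stranded RNA, EIF2AK2, endoplasmic reticulum stress, EIF2AK3, and uncharged tRNA, EIF2AK4, had 624, 448 and 405 per kb in clone 2 and 528, 382 and 314 per kb in clone 1. PPP1R15B, the constitutive counterpart of PPP1R15A, had 1135 per kb (clone 2) and 867 per kb (clone 1), above PPP1R15A in both clones. ATF3, a factor induced downstream of ATF4, was low at 197 per kb (clone 2) and 148 per kb (clone 1).

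The libraries carried the markers of a B-cell precursor, and all 13 markers of that list were present. IGLL1 and VPREB1, the surrogate light chain of the pre-BCR, had 18793 and 8181 per kb in clone 2 and 14448 and 6279.8 per kb in clone 1. The marker MME (CD10) was weak, with means of 67.0 (clone 2) and 67.7 (clone 1). Of the markers of other cells, CD3D, CD3E, CD2, HBB, HBA1 and EPCAM were in neither table. The T and NK cell marker NKG7 was present above the median gene, with means of 208 (clone 2) and 192 (clone 1). The stromal marker COL1A1 was present with means of 214 (clone 2) and 145 (clone 1). Per kb, COL1A1 had 48.7 (clone 2) and 33.0 (clone 1), below the median gene. Their part in the results was not tested. The 4 myeloid markers summed to 799.5 in clone 2 and 637 in clone 1, nearly all of it CSF1R, and the 2 markers MPO and CD14 were at most 10.7.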

How the data were processed

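Dasatinib-resistant and dasatinib-sensitive RCH-ACV cells of 2 clones were sequenced as stranded mRNA libraries, 3 per group. The authors made 1 table per clone. The deposited signal used here is a normalized count per gene, averaged by the authors across all 6 libraries of that clone. Tools listed in the submitters' processing notes, without their roles, are DESeq2, FastQC 0.10.1, bedtools 2.19.0, Picard 1.107, SAMtools and 2 BWA versions (0.7.7-r441, 0.6.2-r126), and the build is hg19. Which annotation, counter and strand setting served is not given in the sources used here, so overlapping and antisense genes are uncertain. The other deposited columns hold the authors' own comparison of resistant with sensitive cells (fold change, standard error, test statistic, p-values, direction) and were not used. The planned test of resistant against sensitive libraries therefore was not run.

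The deposited means summed to 24561485 over 16848 rows in clone 2 and to 19108037 over 15612 rows in clone 1, and the depth of single libraries is unknown. Within each of them, 2 rows shared a symbol and were left out, and date-like symbols (22 and 21) were kept as they stand. Coding and transcript lengths came from GENCODE 29 by symbol and covered 85.3% and 86.3% of genes. They replaced the planned protein lengths. Tables were scaled by the median ratio over shared genes with a mean of at least 10, and a fold of 1.5 was the limit. The computation of ratios was checked on simulated data. Promoter sequences came from RefSeq (GRCh38.p14), matched by symbol or synonym. Members and lists were chosen with earlier results of these data known. Every listed member is named, with its level or, for most synthetases in the middle of the order, their range. The grouping by complex and by chromosome arm was chosen after values were seen. Python 3.11.15 with pandas 2.3.3 was used. Some genes of the lists are not reported here.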

Additional observations from a re-analysis of the deposited data

How the results depend on the processing

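Without any rescaling of the deposited means, 2 members (STC2 and KARS) were past 1.5-fold between clones and the median log2 ratio of the members was 0.38, where the shift of the whole table was 0.37. Scaling by the table sum or the upper quartile, no filter on low values, a mean of at least 50 or 1000, a fold of 2, and leaving out the genes of the long arm of chromosome 16 each gave 0 members past the limit. Under those other than the fold of 2 the median stayed between 0.00 and 0.01. Scaling by the table sum turned the sign of 1 member, by a shift of 0.007. Of the alternatives to the level percentile, the whole transcript length moved it to 90.6 in clone 2 and 89.2 in clone 1; the others kept it within 5 points. Counting only bases before the start, 15.5% of member windows and 3.13% of all windows held the ATF4 element, because elements at or after the start no longer counted. The transcript length, the mean of at least 1000, the arm and the shorter window were chosen after seeing the data. No paired analysis was possible because the values are means over the 6 libraries of a clone, and for the same reason no library could be left out and no spread, interval or test was computed. Differences of the size seen here, mostly under 0.10 on the log2 scale, cannot be separated from variation between libraries.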

Other observations

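Among 19 related amino acid and one-carbon enzymes outside the list, 18 were listed in both tables, and 0 of the 17 compared were past 1.5-fold between clones, against 4.94% of all genes. The thymidylate synthase TYMS had 7282 per kb (clone 2) and 5913 per kb (clone 1), above MTHFD2. GLDC, the decarboxylase of the glycine cleavage system, had 216 per kb (clone 2) and 193 per kb (clone 1). Its partner GCSH had 2913 per kb (clone 2) and 1899.5 per kb (clone 1). Of the other components, AMT was lower than GLDC, at 41.7 per kb (clone 2) and 36.7 per kb (clone 1). DLD had 1727 per kb (clone 2) and 1210 per kb (clone 1). GCSH and the mitochondrial aspartate aminotransferase GOT2 are also on the long arm of chromosome 16, and their log2 ratios of clone 2 over clone 1 were 0.25 and 0.25. ALDH1L2, the mitochondrial enzyme that oxidizes formyltetrahydrofolate and a known ATF4 target, had the lowest ratio of the related enzymes at -0.36, and its means were 91.6 (clone 2) and 90.9 (clone 1).

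The proline catabolic enzyme PRODH was listed at a mean normalized count of 4.16 (clone 2) and 3.83 (clone 1). GPT, the cytosolic counterpart of GPT2, had 28.9 per kb (clone 2) and 22.8 per kb (clone 1). Of the mitochondrial synthetases, 17 of 17 were listed in both tables and 0 were past 1.5-fold between the clones, again against 4.94%, so that neither count sets these lists apart from other genes.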
